A study of Mus musculus with 12 samples.

Results

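The genes described here encode the glucose transporters, the enzymes of glycolysis, the enzymes and transporters that handle lactate and the entry of pyruvate into mitochondria, their regulators, and the enzymes of the pentose phosphate pathway, measured by RNA-seq in microglia of the mouse midbrain. The list held 36 genes grouped by function, and it was chosen with earlier results of these data known. Of these, 35 were found among the 21125 genes of the deposited table, 34 by symbol and 1, Pkm2, under its current symbol Pkm. Ldhb was not analysed here. For the tests, 34 of the 35 genes passed the filter on low values (at least 1 FPKM in at least 3 of 6 profiles), and Slc16a3 did not.

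Glucose enters a cell through facilitative transporters of the SLC2A family, is trapped by hexokinase as glucose 6-phosphate and is then either split by glycolysis to pyruvate, with a net gain of ATP, or passed through the pentose phosphate pathway, which yields NADPH and ribose phosphates. Pyruvate leaves the cytosol for the mitochondrion or is reduced to lactate, which monocarboxylate transporters carry out of the cell. Microglia, the resident macrophages of the brain, are known to use more glucose through glycolysis when they are activated, and the transcription factor HIF-1α raises the transcription of many of these genes in low oxygen.

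The 4 groups were Ppargc1a FF CreER mice given MPTP (KO MPTP), Ppargc1a FF CreER mice given PBS (KO PBS), Ppargc1a FF mice given MPTP (WT MPTP) and Ppargc1a FF mice given PBS (WT PBS). FF, in common usage a floxed allele, was part of both genotypes, and every group was taken 6 weeks after tamoxifen, so the WT mice are controls that carried the allele and had tamoxifen too. MPTP is a toxin that kills dopaminergic neurons, and Ppargc1a encodes PGC-1α, a coactivator of mitochondrial biogenesis. The sources used here do not give the promoter that drives CreER, the age of the mice or the number of mice behind a sample. Microglia were sorted by flow cytometry. Whether the samples are separate animals is not stated, and the p-values therefore reflect only how far the profiles spread, which could be technical.

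The labels name 3 samples per group, but the 12 columns held only 6 separate profiles: KO MPTP 2, KO PBS 1, KO PBS 2, WT MPTP 1, WT PBS 1 and WT PBS 2. Each of the other 6 columns followed a fixed arithmetic relation to these in nearly all of 67355 rows, with 49 rows in 42 genes departing from a relation. KO MPTP 1 was 1.02 times KO PBS 2, so that profile stands under both treatments, and the table does not show which treatment it had. It is named KO PBS 2 below, and statements on PBS profiles count it by that label only. Values are taken as FPKM, which is scaled by transcript length so that levels of different genes can be set side by side, and summed to between 388861 and 434022 per column; the read depth is unknown. Ppargc1a was at 0.22, 0.42 and 0.51 FPKM in the KO MPTP columns and 0.33, 0.12 and 0.42 FPKM in the KO PBS columns, against 2.72, 2.83 and 2.95 FPKM in the WT MPTP columns and 5.70, 6.21 and 5.60 FPKM in the WT PBS columns, with the genotypes apart; Ppargc1a is itself among the 42 genes. Of 9 markers of microglia and macrophages, Cd68 was the highest (mean 479 FPKM), whereas Cx3cr1 stood under 0.1 FPKM and P2ry12 between 0.15 and 0.26 FPKM in every profile, so 2 defining markers of microglia were near 0. The summed level of these 9 markers ran from 822 to 895 FPKM in KO profiles and from 904 to 922 FPKM in WT profiles. Of 6 neuronal markers 2 were found, both under 0.1 FPKM in every profile. The endothelial marker Cdh5 was listed at 0 although Flt1 averaged 86.9 FPKM. The granulocyte marker S100a8 was at 5.76 FPKM in KO MPTP 2 and 5.75 FPKM in WT MPTP 1. It was at 3.81 and 3.68 FPKM in KO PBS and at 3.75 and 4.35 FPKM in WT PBS. The other 2 granulocyte markers found were under 0.1 FPKM in every profile. The part of any cell mixture in the results was not tested.

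Of the promoters, 3 are shown: that of the only gene of the list called in any comparison (Slc2a1), that of the gene with the largest KO difference below 0 (Pgk1), and that of an abundant gene that was not called (Ldha, the first of 2 annotated starts). Each is the 250 bases before the annotated start, from RefSeq on GRCm38.p6, 5′ to 3′ on the gene's strand, and capitals mark ACGTG, the core of the sites that HIF-1 binds, and its reverse complement CACGT, which overlap where CACGTG is written.
Slc2a1, chr4:119108495-119108744, strand +: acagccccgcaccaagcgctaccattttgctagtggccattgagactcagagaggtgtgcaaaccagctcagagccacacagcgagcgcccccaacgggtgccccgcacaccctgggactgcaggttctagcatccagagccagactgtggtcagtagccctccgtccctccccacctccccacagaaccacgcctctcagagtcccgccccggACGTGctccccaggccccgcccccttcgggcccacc
Pgk1, chrX:106186850-106187099, strand +: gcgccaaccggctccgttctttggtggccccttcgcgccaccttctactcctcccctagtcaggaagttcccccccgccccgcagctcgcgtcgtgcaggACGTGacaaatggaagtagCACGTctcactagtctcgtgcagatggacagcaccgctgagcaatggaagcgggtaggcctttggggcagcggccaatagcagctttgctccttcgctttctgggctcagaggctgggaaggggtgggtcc
Ldha, chr7:46845554-46845803, strand +: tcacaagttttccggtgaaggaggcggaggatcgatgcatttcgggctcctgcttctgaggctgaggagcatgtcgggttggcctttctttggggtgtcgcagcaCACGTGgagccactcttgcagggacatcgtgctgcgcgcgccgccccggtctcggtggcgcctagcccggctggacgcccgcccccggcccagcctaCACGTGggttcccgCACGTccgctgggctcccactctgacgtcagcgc

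The Slc2a1 window held 1 match, on the gene's strand, the Pgk1 window held 1 on each strand, and the Ldha window held 2 on the gene's strand and 3 on the other. Among the 34 genes of the list with a promoter in the table, 15 (44.1%) had the motif before at least 1 annotated start, against 18.5% of all 27025 genes. By window, which allows for genes with several starts, the share was 36.7% of the 49 windows of the list, against 16.6% of all 32851 windows. These are matches of letters, not sites shown to be bound. The background took in all annotated genes, whether expressed here or not, and the list was not compared with expressed genes alone.

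Most of the list was expressed at high and nearly constant levels. By the mean over 6 profiles, 7 genes stood at or above 500 FPKM, 7 between 100 and 500 FPKM, 15 between 10 and 100 FPKM, 5 between 1 and 10 FPKM, and Slc16a3, a lactate exporter, at 0.08 to 0.20 FPKM. The highest profile exceeded the lowest 3.49-fold for Slc2a1 and 1.07-fold to 1.58-fold for the other 33 genes tested, with a median of 1.12-fold. The median SD over the 6 profiles on the log2(FPKM + 1) scale was 0.0627 for the list and 0.0712 for all 10634 genes tested. Together the 35 genes held between 2.07% and 2.21% of all FPKM in a profile.

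**Figure D1:**
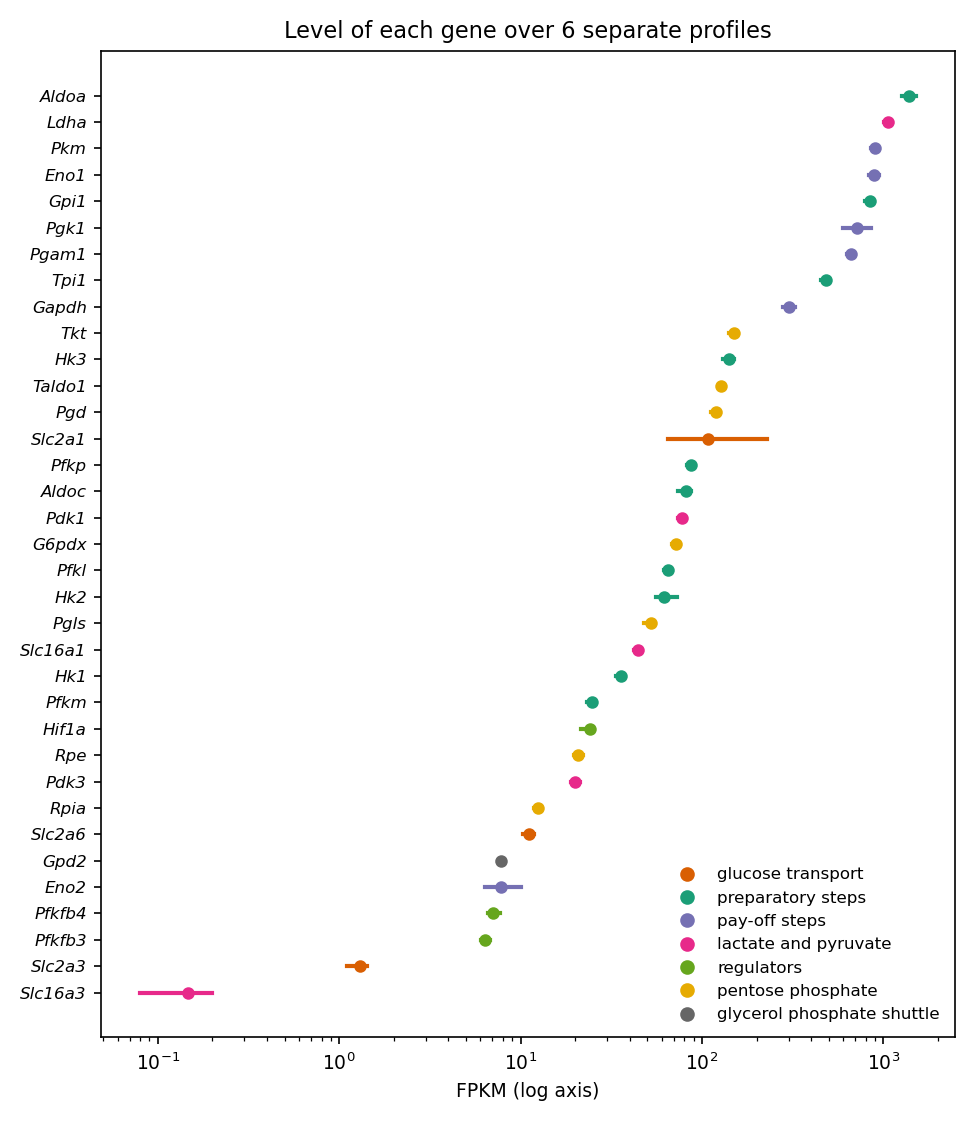
Level of each of the 35 genes over 6 separate profiles, in FPKM on a log axis. Points are means, lines run from the lowest to the highest profile, and colours give the role; the line of Slc2a1, 3.49-fold from end to end, is the longest among the genes above 1 FPKM.

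Glucose transport was the step with the clearest differences, and all of them came from Slc2a1, which encodes GLUT1, the widely expressed basal glucose transporter. Slc2a1 was at 227 FPKM in KO MPTP 2, at 85.2 and 82.0 FPKM in KO PBS 1 and 2, at 119 FPKM in WT MPTP 1 and at 69.8 and 65.2 FPKM in WT PBS 1 and 2. Both MPTP profiles lay above every profile labelled PBS, and KO MPTP 2 lay furthest from the rest. KO MPTP 2 stood 2.67-fold above KO PBS 1, while WT MPTP 1 stood 1.76-fold above the mean of the WT PBS profiles. In bulk RNA of a sorted population, fewer cells of a type and less RNA per cell cannot be told apart.

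The tests were limma fits on log2(FPKM + 1) over all 10634 genes, and calls were made at a Benjamini-Hochberg adjusted p under 0.05. For treatment effects, and for KO against WT under PBS or under MPTP, the fit used 5 profiles. It left out the one that stands under both treatments, so that WT PBS had 2 profiles and the other groups 1. KO PBS was then KO PBS 1 alone. The groups with 1 profile were taken to vary as the WT PBS pair does. Slc2a1 rose with MPTP in KO by 1.40 ± 0.09 on the log2 scale (SE, limma adjusted p = 0.000176) and in WT by 0.81 ± 0.08 (SE, limma adjusted p = 0.00271). It was the only gene of the list called in either comparison, 1 of 34, where 0.292% of all genes tested were called for MPTP in KO and 0.254% for MPTP in WT. With genotype as a term, Slc2a1 was higher under MPTP by 1.06 ± 0.11 (SE, limma adjusted p = 0.0107), again the only 1 of 34 called, against 0.141% of all genes.

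Under MPTP, Slc2a1 was higher in KO than in WT by 0.93 ± 0.09 (SE, limma adjusted p = 0.00299), the only call among the 34, where 0.103% of all genes were called. Under PBS, Slc2a1 in KO differed from WT by 0.33 ± 0.08, which was not called (SE, limma adjusted p = 0.389). The difference between the MPTP effects in KO and WT was itself 0.59 ± 0.12 for Slc2a1 and did not pass the threshold (SE, limma adjusted p = 0.200). In that interaction 0 of 34 genes were called by limma, against 0.0752% of all genes. An unadjusted p under 0.05 was reached by 2 of the 34, Slc2a1 and Eno2, against 550 of all 10634 genes.

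These calls rest on a gene whose deposited rows depart from the relations that hold elsewhere in the table. In KO MPTP 1, Slc2a1 stood at 246 FPKM, 3.00 times its value in KO PBS 2, where the relation would give 83.6 FPKM. For the other 33 genes of the list tested, the same ratio of KO MPTP 1 to KO PBS 2 was 1.018 to 1.024. Of the 5 rows summed for Slc2a1, the 2 highest departed, by 109.8 and 52.9 FPKM in KO MPTP 1, and by -0.605 and -0.395 FPKM in WT MPTP 2. No other gene of the list had a row off a relation. The shares of all genes called also depend on such genes. With every gene off a relation left out, 4 genes were called for MPTP in KO, against 31 with them. For MPTP in WT 4 were called, against 27.

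With the values of KO PBS 2 counted as KO MPTP, the Slc2a1 difference was 0.67 for MPTP in KO (limma adjusted p = 0.886) and 0.20 for KO under MPTP (limma adjusted p = 1), and 0 of 34 genes were called in any of the 4 comparisons in which Slc2a1 had been. With the values of KO MPTP 1 in their place, the differences were 1.46 and 0.99, and both were called. With no filter on low values Slc2a1 was not called in any of these 4 comparisons (limma adjusted p from 0.273 to 0.641).

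**Figure D2:**
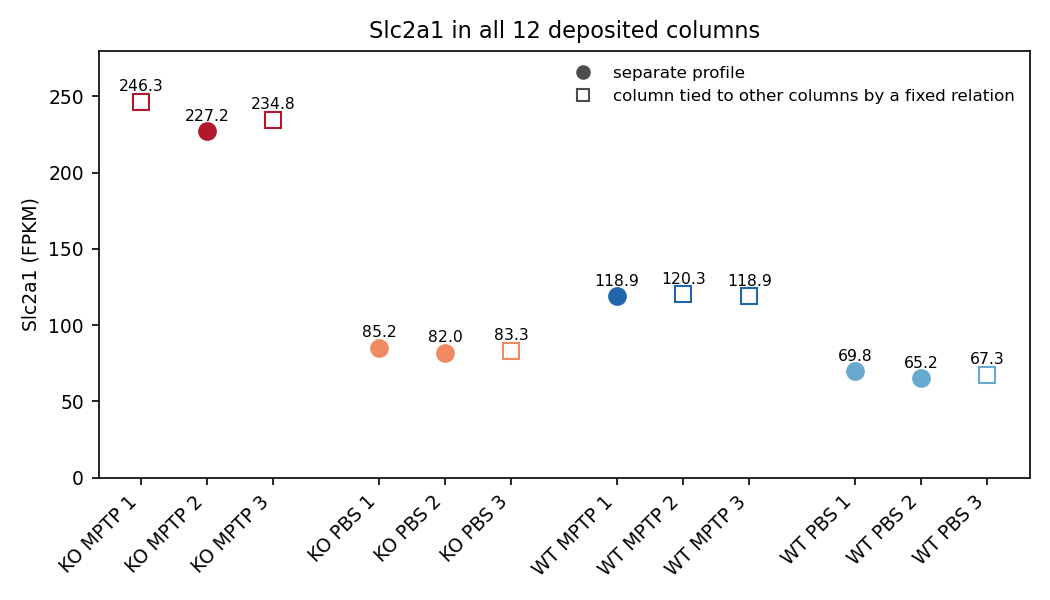
Slc2a1 in FPKM in all 12 deposited columns, by group. Filled circles are separate profiles and open squares are columns tied to others by a fixed relation; KO MPTP 1, at 246 FPKM, sits beside KO MPTP 2 and not near the 82.0 FPKM of KO PBS 2, which its other rows follow.

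The other transporters did not pass the test in any comparison. Slc2a6, which encodes GLUT6, a transporter found on lysosomes in macrophages, was at 11.9 FPKM in KO MPTP 2, at 11.3 and 10.8 FPKM in KO PBS, at 11.6 FPKM in WT MPTP 1 and at 10.3 and 11.2 FPKM in WT PBS. The genotypes overlapped, and both MPTP profiles lay above every PBS profile. Slc2a3, which encodes GLUT3, the high-affinity transporter of neurons, was at 1.11 to 1.43 FPKM over the 6 profiles. Slc2a1 therefore made up 94.5% of the summed FPKM of the 3 transporters in KO MPTP 2, 87.3% and 87.2% in KO PBS, 90.2% in WT MPTP 1, and 85.6% and 83.9% in WT PBS.

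In the preparatory steps of glycolysis, which turn glucose into triose phosphates, no gene was called in any comparison. Aldoa, the muscle-type aldolase that splits fructose 1,6-bisphosphate, was the most abundant transcript of the list, at 1349 FPKM in KO MPTP 2, 1270 and 1265 FPKM in KO PBS, 1408 FPKM in WT MPTP 1 and 1478 and 1513 FPKM in WT PBS. All 3 KO profiles lay below all 3 WT profiles. The KO difference over 6 profiles was -0.18 ± 0.06 (SE, limma adjusted p = 0.744). Gpi1, the isomerase that makes fructose 6-phosphate, was at 861 FPKM in KO MPTP 2, 789 and 800 FPKM in KO PBS, 849 FPKM in WT MPTP 1 and 851 and 884 FPKM in WT PBS, and the genotypes overlapped.

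Hk2, an inducible hexokinase that binds mitochondria, was at 60.22 FPKM in KO MPTP 2, 58.79 and 55.95 FPKM in KO PBS, 60.29 FPKM in WT MPTP 1, and 72.65 and 61.63 FPKM in WT PBS. The genotypes did not overlap, but KO MPTP 2 and WT MPTP 1 were nearly equal, and the gap between the WT PBS profiles, 0.234 on the log2 scale, was the widest of the 34 genes. The KO difference was -0.15 ± 0.07 and the MPTP difference over genotypes -0.07 ± 0.08 (SE), and neither was called. Without WT PBS 1 the KO difference of Hk2 was -0.06. Its MPTP difference was 0.03 without WT PBS 1 and 0.07 without WT MPTP 1. Both of these fits also entered the profile under both treatments as KO PBS, so the sign depends on which profiles enter. Pfkm, the muscle-type phosphofructokinase, was at 24.9 FPKM in KO MPTP 2 and 23.5 and 23.3 FPKM in KO PBS, against 25.7 FPKM in WT MPTP 1 and 25.0 and 25.5 FPKM in WT PBS, with no overlap between genotypes and a KO difference of -0.08 ± 0.05 (SE).

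The isoenzyme makeup varied little. Hk3, the hexokinase of myeloid cells, held 55.8% to 60.4% of the summed FPKM of the 3 hexokinases in every profile, above Hk2 with 24.6% to 29.5% and Hk1, the constitutive form, with 14.7% to 15.6%. Of the phosphofructokinases, the platelet form Pfkp held 48.7% to 49.6%, the liver form Pfkl 36.5% to 37.3% and Pfkm 13.5% to 14.2%. Aldoa held 94.1% to 94.7% of aldolase FPKM, the rest being Aldoc, the form best known from brain. Tpi1, triose phosphate isomerase, ran from 452 to 504 FPKM.

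The pay-off steps, which make ATP and pyruvate, held the gene with the largest KO difference below 0. Pgk1, phosphoglycerate kinase, which makes the first ATP of glycolysis, was at 650 FPKM in KO MPTP 2, 631 and 602 FPKM in KO PBS, 703 FPKM in WT MPTP 1 and 838 and 851 FPKM in WT PBS. The 3 KO profiles averaged 628 ± 24.1 FPKM and the 3 WT profiles 797 ± 82.2 FPKM (SD, n = 3 each), all KO below all WT, with WT MPTP 1 nearest to the KO profiles. Over 6 profiles the KO difference was -0.34 ± 0.07 (SE, limma adjusted p = 0.0776), which missed the threshold. Under PBS alone it was -0.42 ± 0.10 (SE, limma adjusted p = 0.339).

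The Pgk1 result lies close to the threshold and depends on how the profiles are counted. With the profile under both treatments entered as KO PBS, the difference under PBS was -0.45 and was called lower in KO (limma adjusted p = 0.00622). Over 6 profiles it was called without WT MPTP 1 (-0.43, limma adjusted p = 0.000376) and without WT PBS 1 (-0.30, limma adjusted p = 0.00465), and with treatment as a term it was -0.34 or -0.29 and not called (limma adjusted p = 0.190 or 0.764). The MPTP difference of Pgk1 in WT was -0.27 ± 0.10 and was not called (SE, limma adjusted p = 1).

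Gapdh, which oxidises glyceraldehyde 3-phosphate, was at 293 FPKM in KO MPTP 2 and 290 and 280 FPKM in KO PBS, against 322 FPKM in WT MPTP 1 and 297 and 324 FPKM in WT PBS. The phosphoglycerate mutase gene Pgam1 was at 666 FPKM in KO MPTP 2 and 634 and 639 FPKM in KO PBS, against 701 FPKM in WT MPTP 1 and 672 and 684 FPKM in WT PBS. In both genes every KO profile lay below every WT profile, and KO MPTP 2 and WT PBS 1 were the nearest to each other. Their KO differences were -0.13 ± 0.05 and -0.09 ± 0.05 (SE) and were not called.

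**Figure D3:**
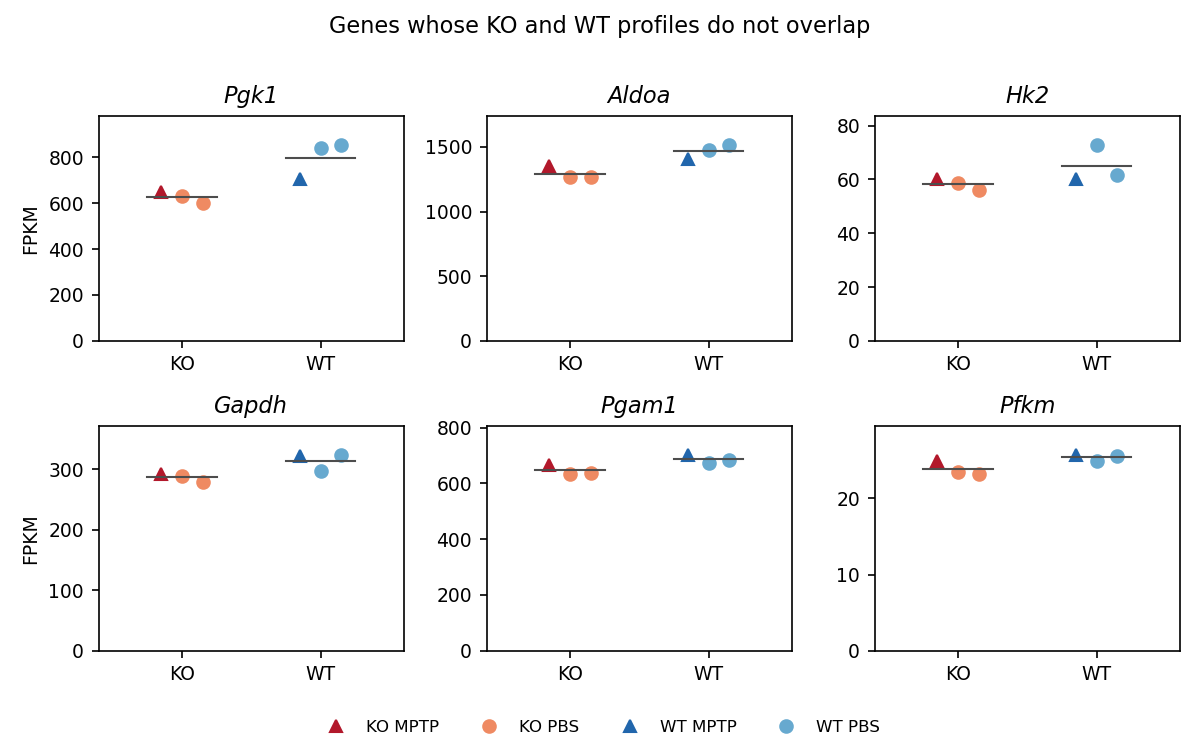
FPKM of the 6 genes whose KO and WT profiles did not overlap, on axes that start at 0. Points are the 3 separate profiles of each genotype, triangles MPTP and circles PBS, and lines are means; in Pgk1 the KO mean is 628 FPKM and the WT mean 797 FPKM, and in Hk2 the nearest KO and WT profiles, at 60.22 and 60.29 FPKM, nearly meet.

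Eno1, the ubiquitous enolase, was at 891 FPKM in KO MPTP 2, 837 and 863 FPKM in KO PBS, 943 FPKM in WT MPTP 1 and 861 and 927 FPKM in WT PBS. Pkm, pyruvate kinase of muscle and of most proliferating cells, was at 905 FPKM in KO MPTP 2, 853 and 880 FPKM in KO PBS, 951 FPKM in WT MPTP 1 and 891 and 950 FPKM in WT PBS. In both genes WT MPTP 1 was the highest profile, KO PBS 1 the lowest, and the genotypes overlapped.

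Eno2, the enolase best known from neurons, made up only 0.749% to 1.12% of enolase FPKM. It was at 10.1 FPKM in KO MPTP 2, 6.39 and 7.87 FPKM in KO PBS, 7.11 FPKM in WT MPTP 1 and 7.84 and 7.31 FPKM in WT PBS, with KO MPTP 2 above the other 5 profiles. The MPTP difference in KO was 0.59 ± 0.11 and missed the threshold (SE, limma adjusted p = 0.0756), and the interaction was 0.67 ± 0.14 (SE, limma adjusted p = 0.222). Under median-ratio scaling (0.51, limma adjusted p = 0.0482) and with a filter at 5 FPKM (0.59, limma adjusted p = 0.0158) the MPTP difference in KO was called. The comparison sets 1 profile against 1 and takes KO PBS 1, the lower of the KO PBS profiles; with KO PBS 2 in its place the difference was 0.33 (limma adjusted p = 0.602). The neuronal markers found, Tubb3 and Syt1, were at 0.00 to 0.03 FPKM in every profile.

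No gene of the lactate and pyruvate branch was called. Ldha, the lactate dehydrogenase subunit that favours lactate formation, was at 1060 FPKM in KO MPTP 2, 1006 and 1040 FPKM in KO PBS, 1120 FPKM in WT MPTP 1 and 1057 and 1101 FPKM in WT PBS. Its KO difference over 6 profiles was -0.08 ± 0.05 (SE), and the genotypes overlapped. Slc16a1, which encodes the lactate carrier MCT1, was at 42.1 to 46.5 FPKM and held at least 99.5% of the FPKM of the 2 lactate carriers in every profile.

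Pdk1, a kinase that switches off pyruvate dehydrogenase and so keeps pyruvate out of the citric acid cycle, was at 77.8 FPKM in KO MPTP 2, 73.4 and 73.7 FPKM in KO PBS, 79.9 FPKM in WT MPTP 1 and 81.9 and 76.4 FPKM in WT PBS. Pdk3, a kinase of the same family, was at 20.6 FPKM in KO MPTP 2, 19.2 and 19.4 FPKM in KO PBS, 21.2 FPKM in WT MPTP 1 and 18.9 and 20.1 FPKM in WT PBS. Both MPTP profiles of Pdk3 lay above every PBS profile, the difference over genotypes being 0.11 ± 0.05 (SE, limma adjusted p = 0.574). The same order held for Slc2a6 and for Pfkp, which was at 89.1 and 92.1 FPKM under MPTP and at most 88.8 FPKM under PBS. How many of all genes show this order was not counted. Pdk1 held 79.0% to 81.3% of the FPKM of the pair.

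Among the regulators, Hif1a was at 23.8 FPKM in KO MPTP 2, 24.5 and 24.6 FPKM in KO PBS, 25.2 FPKM in WT MPTP 1 and 25.0 and 21.4 FPKM in WT PBS. The WT PBS profiles lay further apart than the KO PBS profiles, and the genotypes overlapped. HIF-1α is controlled mainly through the stability of the protein, so its transcript does not measure its activity. Pfkfb4 and Pfkfb3 encode bifunctional enzymes that set fructose 2,6-bisphosphate, the activator of phosphofructokinase. Pfkfb4 was at 7.34 FPKM in KO MPTP 2, 6.73 and 6.80 FPKM in KO PBS, 7.21 FPKM in WT MPTP 1 and 6.65 and 7.73 FPKM in WT PBS. Pfkfb3 was at 6.07 FPKM in KO MPTP 2, 6.76 and 6.20 FPKM in KO PBS, 6.42 FPKM in WT MPTP 1 and 6.59 and 6.05 FPKM in WT PBS. For both, the genotypes overlapped and nothing was called.

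In the pentose phosphate pathway no gene was called in any comparison. Tkt, transketolase of the non-oxidative arm, was at 153 FPKM in KO MPTP 2, 142 and 145 FPKM in KO PBS, 154 FPKM in WT MPTP 1 and 147 and 156 FPKM in WT PBS. Taldo1, transaldolase of the same arm, was at 129 FPKM in KO MPTP 2, 124 and 124 FPKM in KO PBS, 131 FPKM in WT MPTP 1 and 126 and 132 FPKM in WT PBS. KO PBS profiles were the lowest for both, and the genotypes overlapped.

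Rpe, ribulose 5-phosphate epimerase, was one of the few genes of the list with a fitted KO difference above 0, at 0.06 ± 0.06 (SE). It was at 19.6 FPKM in KO MPTP 2, 21.8 and 22.1 FPKM in KO PBS, 20.6 FPKM in WT MPTP 1 and 20.4 and 19.6 FPKM in WT PBS. KO PBS profiles were the highest and KO MPTP 2 shared the lowest level. Of the oxidative arm, which makes NADPH, G6pdx (glucose 6-phosphate dehydrogenase) ran from 68.7 to 75.7 FPKM, Pgls from 48.0 to 54.9 FPKM and Pgd from 113 to 125 FPKM over the 6 profiles. Rpia, which makes ribose 5-phosphate, ran from 11.9 to 12.9 FPKM.

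Gpd2, the mitochondrial glycerol 3-phosphate dehydrogenase that passes cytosolic electrons to the respiratory chain, was at 8.02 FPKM in KO MPTP 2, 7.61 and 7.97 FPKM in KO PBS, 8.04 FPKM in WT MPTP 1 and 7.88 and 7.51 FPKM in WT PBS. Both MPTP profiles lay above every PBS profile, though close to KO PBS 2. Its MPTP difference over genotypes, 0.06 ± 0.06 (SE), was not called.

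Counted over the whole list, KO against WT gave small differences below 0. Over 6 profiles, 0 of 34 genes were called by limma, against 0.0376% of all genes tested, and 4 genes (Pgk1, Aldoa, Gapdh and Hk2) had an unadjusted p under 0.05, against 371 of all 10634. In the fit under PBS, 0 of 34 genes were called by limma, against 0.226% of all genes, and 3 (Pgk1, Slc2a1 and Eno2) had an unadjusted p under 0.05, against 470 of all genes. Every KO profile lay below every WT profile in 6 of 34 genes (17.6%), against 7.19% of all genes tested, and every KO profile lay above every WT profile in 0 of 34, against 0.818%. Without KO MPTP 2 the first count was 20 of 34 (58.8%), against 30.9% of all genes. Without WT PBS 1 it was 17 of 34 (50.0%), against 18.3% of all genes. Without KO PBS 1 it stayed at 6 of 34 (17.6%), against 8.46% of all genes. Such a count can only stay or rise when a profile is left out, so only the size of the rise depends on the profile.

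The median KO difference over 6 profiles was -0.06 for the list and -0.03 for all genes, and 6 of 34 genes stood above 0 (17.6%), against 30.5% of all genes; under quantile normalization the median of the list was 0.01, so its sign depends on scaling. The summed FPKM of the 35 genes averaged 8289 ± 332 in KO and 8919 ± 169 in WT (SD, n = 3 each), with KO profiles at 8669, 8051 and 8148 and WT profiles at 8905, 8758 and 9095. All KO sums lay below all WT sums, with an exact two-sided permutation p of 0.1, the smallest that 3 against 3 allows. As a share of all FPKM the sums were 2.09% ± 0.024 in KO and 2.16% ± 0.0607 in WT (SD, n = 3 each, exact two-sided permutation p = 0.2). The total of all genes was itself lower in KO, 396010 ± 11500 FPKM against 412990 ± 12000 FPKM in WT (SD, n = 3 each, exact two-sided permutation p = 0.2), and the summed microglia and macrophage markers moved the same way; their part in the difference was not tested.

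For MPTP the list followed the bulk of the genes. In the fit over both genotypes 29 of 34 genes (85.3%) stood above 0, against 88.4% of all genes, with medians of 0.06 for the list and 0.07 for all genes. In KO, 30 of 34 stood above 0 with a median of 0.09, against 0.09 for all genes, and in WT 27 of 34 with a median of 0.04, against 0.04 for all genes. Under median-ratio scaling and under quantile normalization the median of the list was below 0 in all 3 of these comparisons, between -0.0161 and -0.0015. The comparisons share profiles, so their values are not independent of each other.

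**Figure D4:**
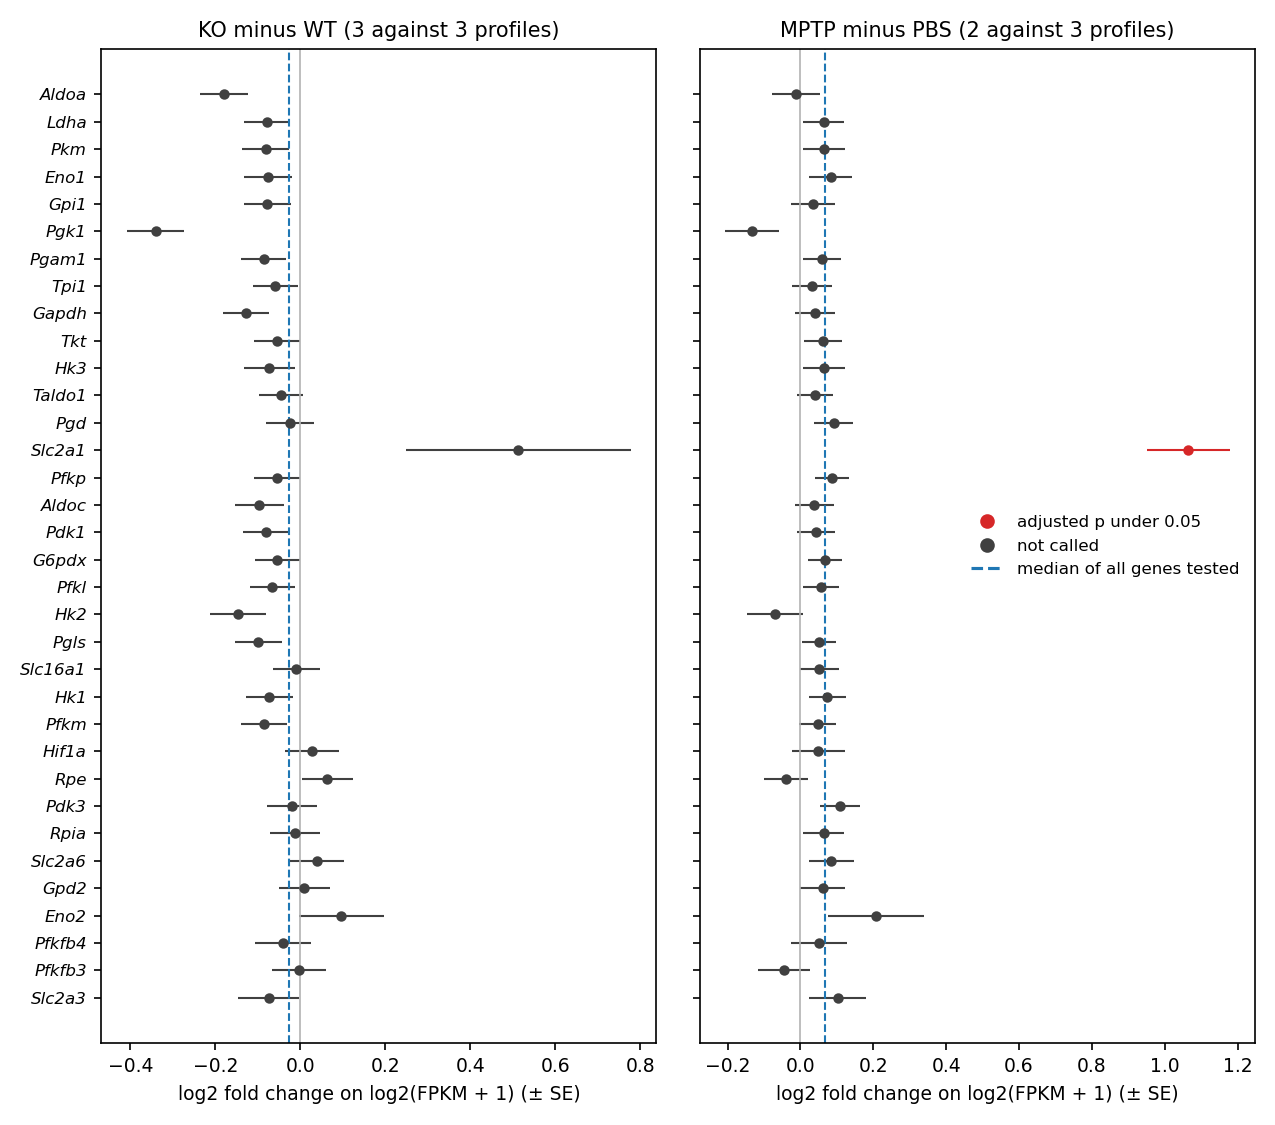
Fitted log2 fold change with SE for the 34 genes tested, KO minus WT over 6 profiles on the left and MPTP minus PBS over 5 profiles with genotype as a term on the right, ordered by mean FPKM. The blue line is the median of all genes tested; only Slc2a1 on the right, at 1.06, passed the threshold, and Pgk1 on the left, at -0.34, lies furthest below 0.

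Outside the list, 58 further genes of glucose, glycogen and pyruvate metabolism were looked up, of which 55 were found and 40 tested. In each of the 7 comparisons 0 of 40 were called higher by limma, and 1 of 40 was called lower in a single comparison, KO against WT under PBS, where 0.226% of all genes were called; in the other 6 the share of all genes called was 0.0376% to 0.292%. Per comparison 0 to 2 of the 40 had an unadjusted p under 0.05, where 282 to 981 of all 10634 genes did. That gene was Dlat, which encodes the acetyltransferase core of pyruvate dehydrogenase, the complex that turns pyruvate into acetyl-CoA. Dlat was at 32.7 FPKM in KO MPTP 2, 29.7 and 30.5 FPKM in KO PBS, 32.9 FPKM in WT MPTP 1 and 44.0 and 42.7 FPKM in WT PBS. The WT PBS profiles stood above the other 4. The KO difference under PBS was -0.53 ± 0.08 (SE, limma adjusted p = 0.0255), and it was not called with no filter (limma adjusted p = 0.372), under quantile normalization (-0.47, limma adjusted p = 0.303) or without WT PBS 1 (-0.49, limma adjusted p = 0.0690).

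Of 19 genes that regulate HIF or are known to respond to it, 17 were tested and 0 were called by limma in any of the 7 comparisons. Per comparison, 0 to 3 of the 17 had an unadjusted p under 0.05, the 3 being for MPTP in KO, where 981 of all 10634 genes did; in the other comparisons 282 to 702 of all genes did. Their median difference was 0.04 for MPTP over genotypes, against 0.07 for all genes, and -0.08 for KO over 6 profiles, against -0.03 for all genes. For KO under PBS it was -0.11, against -0.06 for all genes, and the highest of the 17 was -0.03. For KO under MPTP it was 0.02, against -0.01 for all genes.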

How the data were processed

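RNA-seq libraries of sorted midbrain microglia were deposited as 1 table of 12 columns. The submitters' processing notes name CASAVA 1.5, Bowtie 0.12.7, TopHat, Cufflinks and the build mm9, with no role or order. The deposited values were read as FPKM, the unit Cufflinks writes, since the file's header gives no unit; the sources used here do not give the authors' filters or annotation. With no read depth, counting intervals could not be computed.

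Rows were summed per gene symbol, and 1 row with text in a cell was left out. A column counted as computed when it lay within 0.0101 FPKM (multiples of 1 column) or 0.00995 FPKM (0.1 plus 0.99 times the mean of columns 1 and 2, in every column 3) of its relation in nearly all rows; WT MPTP 2 was 1.02 times WT MPTP 1. Tests used limma 3.58.1 in R 4.3.3 (trend method) on log2(FPKM + 1), a scale that understates changes of low genes, after a filter of 1 FPKM in 3 of 6 profiles, with p-values adjusted over all 10634 genes. KO against WT over both treatments used 6 profiles (4 residual degrees of freedom). The other comparisons, including KO against WT under PBS and under MPTP, used 5 (1 residual degree of freedom, or 2 with genotype as a term). Sums used exact permutation tests in scipy 1.17.1. In simulated sets without any change, false calls averaged 4.90 for MPTP in WT, 0.05 for KO over 6 profiles and 0.00 for MPTP over genotypes. With changed genes mixed in, false calls averaged 20.15, 9.35 and 10.70 in the same order. Each mean was taken over 20 sets of 10634 genes. Every simulated profile was drawn independently from a normal distribution, with a spread taken from the WT PBS pair. The sets therefore cannot show whether groups with 1 profile vary as that pair does. The alternatives were pseudocounts, filters, scaling, other assignments of the profile under both treatments, a replicate block, all 12 columns, and leaving out each profile.

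The genes, lists and tests were chosen with earlier results of these data known. Named with values per profile were genes called in any comparison or off a column relation, the 2 highest of each role, and the 3 largest differences each way in KO over 6 profiles and in MPTP over genotypes; Gapdh, Pgam1 and Pfkm were added after their values were seen, because their KO and WT profiles do not overlap. The reference was GRCm38.p6, another build, and served for symbols and RefSeq promoter sequences only.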

Additional observations from a re-analysis of the deposited data

Results flagged for a closer look

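The column KO MPTP 1 entered only alternatives and none of the main fits. Slc2a1 was at 246.27 FPKM there, above the 81.97 FPKM of KO PBS 2, which KO MPTP 1 otherwise follows at a fixed multiple. That value also lay above the 69.77 and 65.15 FPKM of the WT PBS profiles. It was singled out as a signal in data outside the main measurement. Of the 35 genes of the list, Slc2a1 alone had rows that departed from a column relation. The cause of the departure was not tested.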

How the results depend on the processing

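Slc2a1 was the only gene of the list called for MPTP in WT, for MPTP in KO, for KO under MPTP and for MPTP over genotypes (1 of 34 each). In all 4 the count was 0 when the KO PBS 2 values were entered as a KO MPTP profile, with no filter, and when the genes that depart from the relations were removed, which takes out Slc2a1 itself. That removal also lowered the calls among all genes, from 27 to 4 for MPTP in WT and from 31 to 4 for MPTP in KO. For KO in MPTP they fell from 11 to 0 and for MPTP over genotypes from 15 to 0. With all 12 columns as libraries, where computed columns count as replicates, the counts of 34 were 10 for MPTP in WT (20.2% of all genes called), 17 for KO in PBS (12.4%), 13 for KO in MPTP (14.5%), 2 for the interaction (1.19%), 11 for KO over 6 profiles (9.62%) and 14 for MPTP over genotypes (27.9%). A filter at 5 FPKM gave 2 for MPTP in KO (Eno2 and Slc2a1) and 1 for KO over 6 profiles (Pgk1, lower). Median-ratio scaling gave 2 for MPTP in KO (Eno2 and Slc2a1) and 1 for KO in PBS (Slc2a1, higher). Entering KO PBS 2 as KO PBS, or KO MPTP 1 in its place as KO MPTP, gave 1 for KO in PBS (Pgk1, lower). Unless its construction is named, the cause was not tested. The fits that left out a profile, given below and in the results, started from all 6 profiles. In the fits by group or by treatment, the profile under both treatments then counted as KO PBS, although the main fits left it out. Their values reflect that entry as well as the profile left out. A count of genes without overlap can only stay or rise when a profile is left out.

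Leaving out each profile in turn gave 0 to 1 for KO in PBS, 0 to 1 for KO over 6 profiles, 6 to 21 of 34 genes without overlap (17.6% to 61.8%, against 11.4% to 32.1% of all genes), and a KO minus WT difference of the summed level from -820.1 to -511.0 FPKM; the 4 counts that rest on Slc2a1 stayed at 1 wherever such a fit could be made. The fit with a replicate block gave 2 for KO in PBS and 2 for KO over 6 profiles (Pgk1 lower and Slc2a1 higher in both) and changed no other count of calls. Only WT PBS and KO PBS have both numbers; their deviations correlated at 0.2273 over 10634 genes. The labels tie the number to no animal, litter or day, and a single pair of groups does not settle whether it pairs the samples.

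The comparisons between the 4 groups stand on 1 or 2 profiles per group and 1 residual degree of freedom, so their p-values depend on the assumed common spread. Read depth is not given, and differences of low genes such as Slc2a3 and Slc16a3 cannot be judged.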
